A study of Mus musculus with 7 samples.

Results

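The MYC and MAX network is a set of transcription factors that pair through a shared basic helix-loop-helix leucine zipper. It was followed here by RNA sequencing of brown adipose tissue as 10 genes, Mycl, Myc, Mycn, Max, Mxd1, Mxd4, Mxi1, Mnt, Mlx and Mga. They were taken by symbol from a deposited table of 55487 genes, and each of the 10 had 1 line. They were chosen by family and by a measured value, the difference in Mycl counts between CB-100 and sham, which was known when the list was drawn up. Fitted values of the members below therefore describe these libraries and support nothing further.

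The tissue came from 7 mice of NOD/ShiLtJ, an inbred strain that develops autoimmune diabetes. In the CB-100 group, 4 mice with blood glucose between 190 and 230 mg/dL received CB-100 under the skin for 7 days at 1.5 mg per kg of body weight. CB-100 is the fraction above 100 kDa of a buffer that brown adipocytes had conditioned. In the sham group, 3 mice received KRBH buffer. The labels give them no schedule of their own and repeat the CB-100 protocol for these samples, its glucose range included. Collection of the tissue fell 2 to 8 weeks after the injections. The labels name neither the week for a mouse nor its age. Sample titles carry the code nd on the CB-100 samples and d on the sham samples, which the labels do not explain. If it marks mice without and with diabetes when the tissue was taken, which was not settled here, then diabetes and the injection cannot be told apart in any difference below. The comparison of CB-100 with sham sets the brown fat of mice given this fraction beside that of mice given buffer.

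Library totals ran from 10815101 to 28528471 counts. Counts of Xist and 4 Y-linked genes read as 3 females and 1 male (replicate 3) in CB-100 mice and as 2 females and 1 male (replicate 3) in sham. Of 16823 genes tested with edgeR's quasi-likelihood test, 622 (3.70%) were called at a Benjamini-Hochberg adjusted p of 0.05. Mitochondrially encoded genes took 22.3% to 36.3% of the counts in CB-100 mice and 14.3% to 22.8% in sham. The structural RNAs Rn7sk, Rn7s1, Rn7s2 and Rn7s6 took 9.54% to 14.4% in CB-100 mice and 5.89% to 8.35% in sham, and protein-coding genes, the mitochondrial ones included, 76.2% to 80.0% in CB-100 mice and 83.0% to 86.5% in sham. Neither of these last ranges overlapped, so RNA make-up moved with the group, and its part in the values below was not tested. The brown adipocyte marker Ucp1, the uncoupling protein of heat production, was present in every library, at 450 to 2237 CPM (counts scaled to a common library total) in CB-100 mice and 46.1 to 875 CPM in sham.

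MAX is the common partner of the network. MYC, MYCN and MYCL bind DNA only as pairs with MAX and raise transcription of growth genes, whereas MXD1, MXI1, MXD4 and MNT pair with MAX on the same sites and bring the SIN3 histone deacetylase corepressor. MLX is a MAX-like partner for the glucose-sensing factors ChREBP (gene Mlxipl) and MondoA (gene Mlxip) and also pairs with some MXD proteins and MNT. MGA is a large protein with a MAX-binding domain and a T-box domain that assembles the repressive Polycomb complex PRC1.6. In adipocytes MYC is best known from adipogenesis in culture, and ChREBP with MLX from the control of fat synthesis.

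The preferred site of the network is the E-box CACGTG, which reads the same on both strands and is a special case of the general E-box CANNTG. The sequences below are shown because they carry the sites of this family in the promoters of its own genes, with matches in capitals. Promoter windows of RefSeq on GRCm38.p6, from 250 bases before to 50 bases after a gene's start, were matched by symbol for 9 of the 10 members, all but Myc. CACGTG was found for 4 of these 9 genes (44.4%), which are Mxd4, Mnt, Mlx and Max, against 11.4% of the tested genes and 8.09% of all genes with a window. The first base of the match lay 219 bases before the start in Mxd4, 123 in Mnt, 40 in Mlx and 3 in Max, and each is printed with 12 bases on either side.
Mxd4, chr5:34187912-34187941, minus strand: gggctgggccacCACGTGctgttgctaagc
Mnt, chr11:74830789-74830818, plus strand: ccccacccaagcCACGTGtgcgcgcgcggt
Mlx, chr11:101087238-101087267, plus strand: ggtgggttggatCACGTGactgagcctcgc
Max, chr12:76962234-76962263, minus strand: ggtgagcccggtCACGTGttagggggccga

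The windows of Mycl, Mycn, Mxd1, Mxi1 and Mga held no CACGTG. Mycl, on which most of the results turn, is shown for the stretch before its RefSeq start that no annotated exon of the gene covers. The GENCODE model of the gene starts earlier, at 122995652, so the stretch lies inside that model. The capitals mark 1 general E-box, CACCTG, and 1 variant of the E-box, CACGCG. Their first bases lie 106 and 20 bases before the RefSeq start. General E-boxes (CANNTG) stood in the windows of 67.9% of the tested genes, and CACGCG or its reverse complement CGCGTG in 19.1%.
Mycl, chr4:122995812-122995930, plus strand: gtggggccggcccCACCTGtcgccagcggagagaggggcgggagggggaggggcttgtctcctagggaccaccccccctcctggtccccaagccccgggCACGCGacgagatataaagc

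Mycl, which encodes L-MYC, was the member that separated the groups by far the most. Its level was 4.01, 9.59, 3.38 and 1.95 CPM in CB-100 replicates 1 to 4, against 63.2, 12.8 and 34.8 CPM in sham replicates 1 to 3. The highest CB-100 library, replicate 2, lay just under the lowest sham library, replicate 2, and the groups did not overlap. Behind these levels stood 42 to 105 counts per CB-100 library and 187 to 1213 counts per sham library, all whole numbers, and no annotated gene overlaps Mycl (chromosome 4, 122995652 to 123002485, plus strand, GRCm38). Mycl averaged 4.73 ± 3.35 CPM (SD, n = 4) in CB-100 mice and 36.9 ± 25.2 CPM (SD, n = 3) in sham. The fit gave a log2 change of -3.00 with an SE of 0.63, which is 8.02-fold lower in CB-100. Its edgeR adjusted p of 0.046 sits close to the threshold of 0.05. In bulk tissue, fewer cells of a type and less RNA per cell cannot be told apart.

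The spread of Mycl among sham mice was wide, a 4.92-fold range between replicates 2 and 1. Mycl stayed past the threshold when sham replicate 2 was left out (log2 change -3.41, edgeR adjusted p = 0.035). It missed the threshold without any other single library, with log2 changes of -2.37 without sham replicate 1, -3.05 without sham replicate 3 and -3.59 to -2.73 without each CB-100 replicate (edgeR adjusted p of 0.057 to 0.14). It also missed the threshold with sex as covariate (edgeR adjusted p = 0.060), with a skeletal muscle score as covariate (edgeR adjusted p = 0.12) and with no filter on low counts (edgeR adjusted p = 0.14). In the males, 1 per group, Mycl stood at 3.38 CPM in CB-100 mice and 34.8 CPM in sham. In the 5 females alone its log2 change was -2.92 (SE 0.80, edgeR adjusted p = 0.22).

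**Figure D1:**
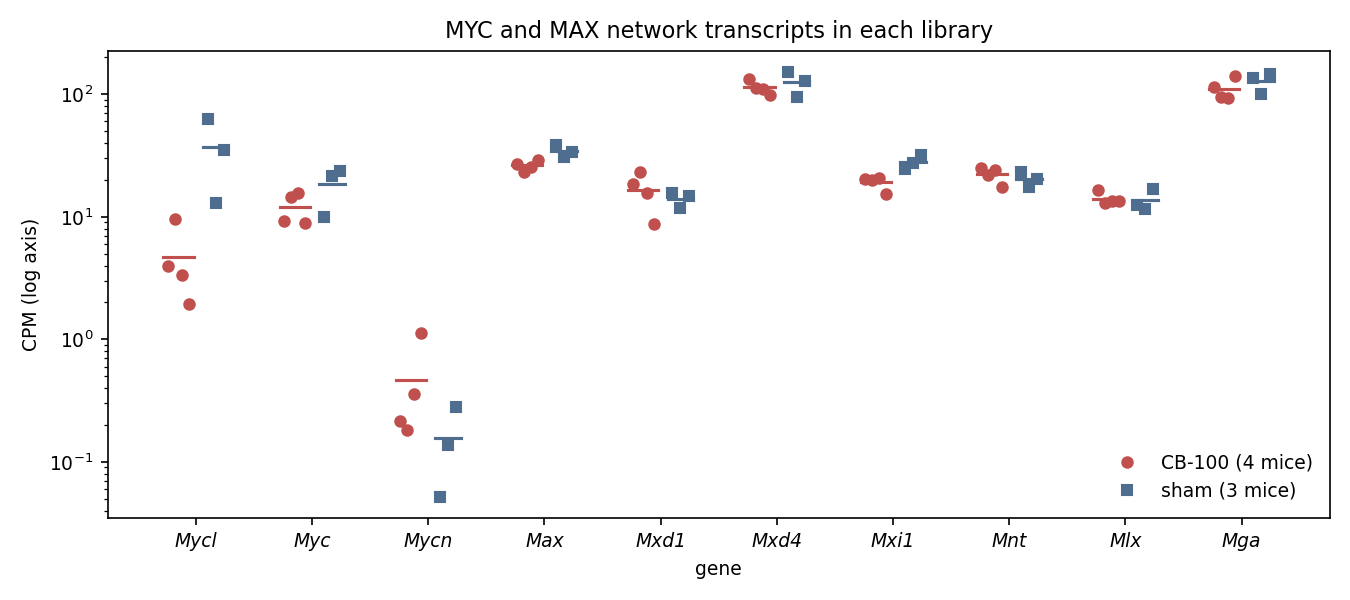
Level of each of the 10 network genes in CPM on a log axis, with 1 point per library (4 CB-100 libraries as circles, 3 sham libraries as squares) and a line at each group mean. Mycl lies at 1.95 to 9.59 CPM in CB-100 mice and 12.8 to 63.2 CPM in sham, while Mxd4 and Mga lie near 100 CPM in both groups and Mycn near the floor.

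Myc, the founding member and the broadest activator of the family, had groups that overlapped. It stood at 9.23, 14.5, 15.7 and 8.93 CPM in CB-100, against 9.89, 21.7 and 23.5 CPM in sham. Sham replicate 1, the library with the most Mycl, had the least Myc of the sham libraries and lay within the CB-100 range. Means were 12.1 ± 3.51 CPM (SD, n = 4) in CB-100 mice and 18.4 ± 7.40 CPM (SD, n = 3) in sham, and the fitted log2 change was -0.61 (SE 0.33, edgeR adjusted p = 0.29). The log2 change of Myc was -0.92 without sham replicate 1 (edgeR adjusted p = 0.13), -0.40 without sham replicate 3 (edgeR adjusted p = 0.62) and -0.29 with the muscle score (edgeR adjusted p = 0.69). Mycn, the paralog of early development and neural tumours, was barely detected and was removed by the filter on low counts. It had 3, 2, 5 and 24 counts in CB-100 mice and 1, 2 and 6 counts in sham, and CB-100 replicate 4 stood apart from the other 6 libraries.

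Set per kilobase of merged exon length, which allows genes to be compared, the 3 MYC paralogs together reached 4.45, 7.77, 6.72 and 4.11 CPM per kb in CB-100 mice and 19.3, 11.2 and 17.4 CPM per kb in sham. The sums did not overlap, but they contain Mycl, whose difference was known when the genes were chosen. The family share and the ratio given below contain it as well. Myc alone overlapped, at 3.29 to 5.77 CPM per kb in CB-100 mice and 3.64 to 8.65 in sham. The make-up of the MYC family also overlapped between the groups. Mycl supplied 11.8% to 30.5% of the MYC family level in CB-100 mice and 28.4% to 81.1% in sham, and Myc was the leading paralog in each CB-100 library and in sham replicate 2. Among sham mice the make-up varied widely. Sham replicate 1 had 15.6 CPM per kb of Mycl and 3.64 of Myc, replicate 2 had 3.18 and 7.99, and in replicate 3 the 2 genes stood level at 8.63 and 8.65. The MYC family took 11.4% ± 3.47 (SD, n = 4) of the summed level of the 10 genes in CB-100 mice and 23.9% ± 2.47 (SD, n = 3) in sham, ranging from 8.16% to 15.2% against 21.3% to 26.1%. In CPM with no correction for length the share was 5.12% in CB-100 mice and 13.0% in sham, a difference of -7.85 percentage points against -12.6 with it. Relative to the summed level of Mxd1, Mxd4, Mxi1 and Mnt, the MYC family stood at 0.247 ± 0.069 in CB-100 mice and 0.624 ± 0.071 in sham. This sum of MAX-binding repressors itself was 23.4 ± 3.32 CPM per kb in CB-100 mice and 25.3 ± 4.14 in sham, with ranges that overlap.

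**Figure D2:**
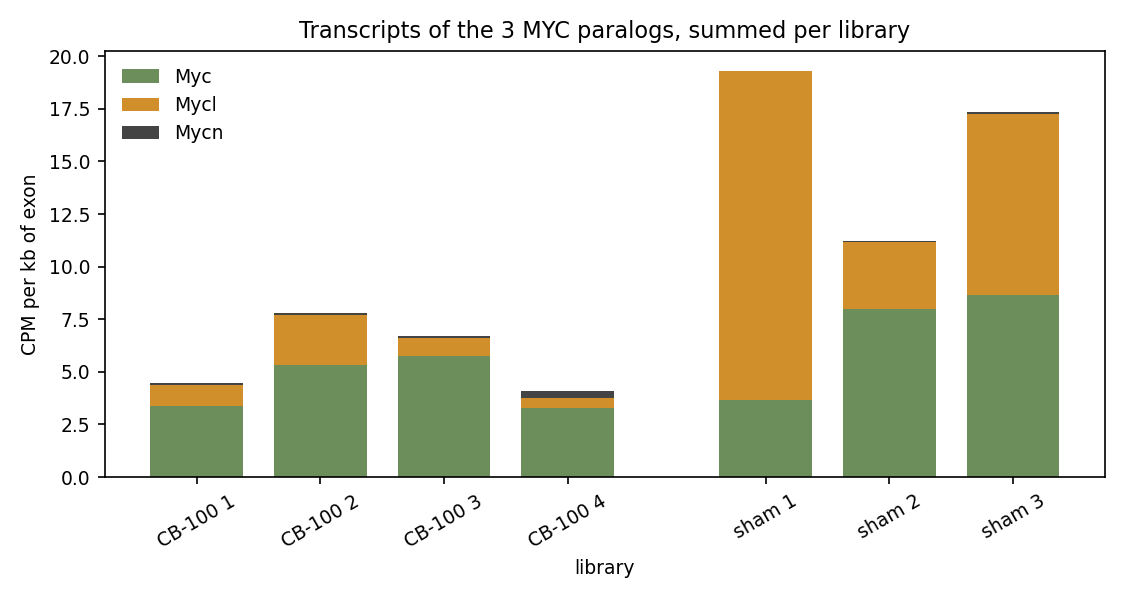
Stacked level of Myc, Mycl and Mycn in CPM per kb of exon in each of the 7 libraries, CB-100 on the left. The 4 CB-100 bars reach 4.11 to 7.77 and the 3 sham bars 11.2 to 19.3, and the Mycl segment is the part that differs most between and within the groups.

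Max, the shared partner, was lower in each CB-100 library than in each sham library, by a small margin. It stood at 27.0, 23.2, 25.7 and 29.1 CPM in CB-100 mice and 38.7, 30.6 and 33.8 CPM in sham. CB-100 replicate 4 and sham replicate 2 came closest to each other. The log2 change of -0.39 (SE 0.14) did not pass (edgeR adjusted p = 0.13). A gene model on its own strand overlaps Max, so its counts are uncertain.

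Among the repressors, Mxi1, whose product recruits SIN3 as MXD1 does, had the smallest p after Mycl. Its level was 20.5, 20.0, 20.8 and 15.4 CPM in CB-100, against 24.7, 27.8 and 31.8 CPM in sham. The groups did not overlap, and CB-100 replicate 4 lay below its 3 fellows, which were nearly equal. Mxi1 had a log2 change of -0.55 (SE 0.16) and did not pass (edgeR adjusted p = 0.080), although DESeq2 called it (adjusted p = 0.039). Its count is uncertain, since 2 gene models overlap it on the opposite strand and whether the counting used strand is not given in the sources used here.

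For Mxd4, Mxd1 and Mnt, which are repressors of the same type, the groups overlapped. Mxd4, by CPM per kb the most abundant of the 10 genes in both groups, ranged from 98.6 to 134 CPM in CB-100 mice and from 95.0 to 152 CPM in sham. Its log2 change was -0.13 (SE 0.19, edgeR adjusted p = 0.71), and a gene model on the opposite strand and non-whole counts in 3 libraries make it uncertain. Mxd1 (MAD1), induced in many cell types as they differentiate, ranged from 8.79 to 23.0 CPM in CB-100 mice and from 11.8 to 15.6 CPM in sham. CB-100 replicates 2 and 4 held the ends of the Mxd1 range, and the log2 change was 0.22 (SE 0.29, edgeR adjusted p = 0.68). Mxd1 is uncertain too, for a gene model on its own strand. Mnt, the most widely expressed MYC antagonist, ranged from 17.4 to 25.2 CPM in CB-100 mice and from 17.4 to 23.2 CPM in sham, with a log2 change of 0.12 (SE 0.17).

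Mlx and Mga, which link the network to glucose sensing and to Polycomb repression, also overlapped between the groups. Mlx stood at 12.9 to 16.5 CPM in CB-100 mice and 11.6 to 16.7 CPM in sham, and the fitted log2 change was 0.04 (SE 0.18, edgeR adjusted p = 0.90). Its counts are non-whole in all 7 libraries and Psmc3ip overlaps it on the opposite strand, so they are uncertain. Mga stood at 93.9 to 141 CPM in CB-100 mice and 100.0 to 147 CPM in sham, and the fitted log2 change was -0.19 (SE 0.20, edgeR adjusted p = 0.59).

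Of the 9 tested members, 1 was called lower (Mycl) and 0 higher, beside 2.28% of all tested genes called lower and 1.42% called higher. Mycl, Max and Mxi1, 3 of 9, had each CB-100 library below each sham library, which 12.2% of all tested genes had, and 0 of 9 had the opposite, which 11.1% had. The median log2 change of the 9 was -0.19, against 0.03 over all tested genes. As the comparison was known when the genes were chosen, nothing is read from these shares.

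**Figure D3:**
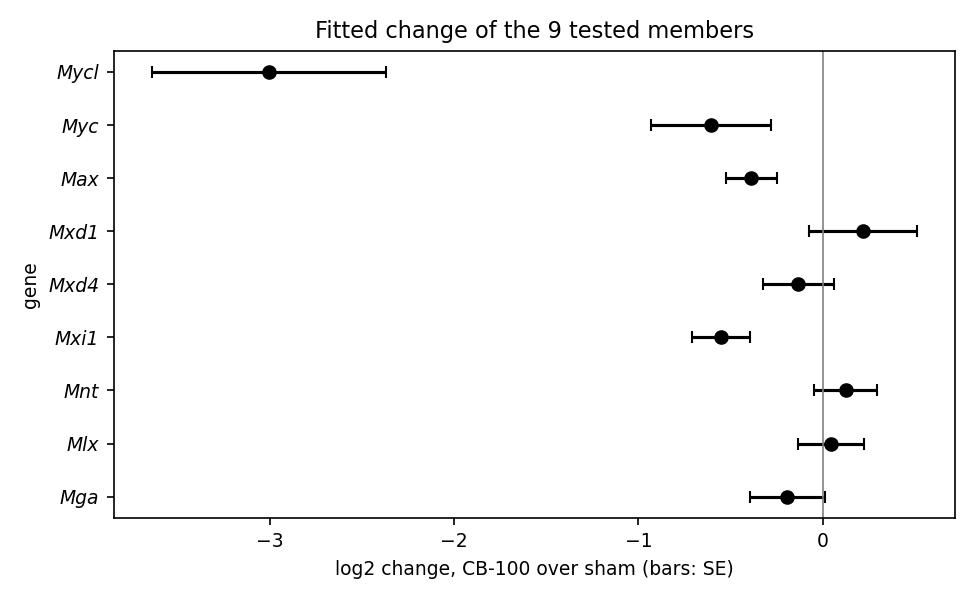
Fitted log2 change of CB-100 over sham for the 9 tested members, with bars of 1 SE on either side. Mycl stands at -3.00, and the other 8 genes lie between -0.61 and 0.22.

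By CPM per kb the order of the 10 genes was similar in the groups apart from Mycl. In CB-100 it ran from Mxd4 (13.5 ± 1.75, SD, n = 4) over Max, Mga, Mlx, Mnt, Myc, Mxi1 and Mxd1 to Mycl (1.17 ± 0.83) and Mycn (0.142 ± 0.133). In sham it ran from Mxd4 (14.7 ± 3.39, SD, n = 3) over Max, Mycl (9.15 ± 6.25), Mga, Mlx, Myc, Mnt, Mxi1 and Mxd1 to Mycn (0.048 ± 0.035). Mycl thus held place 9 in CB-100 mice and place 3 in sham. Of the 9 pairs of neighbours in each order, 6 had overlapping ranges of 1 SD in CB-100 mice and 6 in sham, so that most neighbours did not differ beyond their spread. In both groups Mxd4 stood clear of Max, and Mycn stood clear of the gene above it. Merged exon length counts exons of every annotated transcript, so levels of genes with long, rarely used exons are understated.

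Of the network genes outside the 10, Mlxipl, which encodes ChREBP, was abundant, at 387, 433, 336 and 490 CPM in CB-100 against 323, 282 and 318 CPM in sham. The groups did not overlap, yet the log2 change of 0.42 (SE 0.19) did not pass (edgeR adjusted p = 0.22). Mlxip, encoding MondoA, had a log2 change of -0.15 (edgeR adjusted p = 0.66). Both have a gene model on the opposite strand and are uncertain. Mxd3, the repressor of dividing cells, had 3 to 8 counts in CB-100 mice and 0 to 5 in sham and was not tested.

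Among the 6 protein-coding genes whose profile over the 7 libraries came nearest to that of Mycl were Zim1, Kif27, Acat3, Trp53inp1 and Ivns1abp. Nearness was the root mean square difference of log2 CPM after subtracting each gene's own mean, over 12743 candidates, and was 0.33 for Zim1, 0.48 for Kif27, 0.59 for Acat3, 0.59 for Trp53inp1 and 0.60 for Ivns1abp. Zim1, an imprinted zinc finger gene, stood at 6.87, 13.3, 8.92 and 4.0 CPM in CB-100 mice and 156, 35.6 and 73.3 CPM in sham. Its libraries stood in nearly the same order as those of Mycl, with sham replicate 1 highest and CB-100 replicate 4 lowest. Trp53inp1, a p53-induced protein with a role in autophagy, averaged 31.4 ± 6.54 CPM (SD, n = 4) in CB-100 mice and 183 ± 105 CPM (SD, n = 3) in sham. Kif27 is a kinesin, Acat3 an acetyl-CoA acetyltransferase and Ivns1abp a kelch protein. Of these 5, 4 were called lower in CB-100 mice and Acat3 was not (edgeR adjusted p = 0.063), and the likeness contains the group difference. Counts of Acat3 and Ivns1abp are non-whole in all 7 libraries, and Acat3 belongs to a gene family, so both are uncertain. Kif27 overlaps 3 other gene models, has a non-whole count in 1 library and is uncertain as well.

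**Figure D4:**
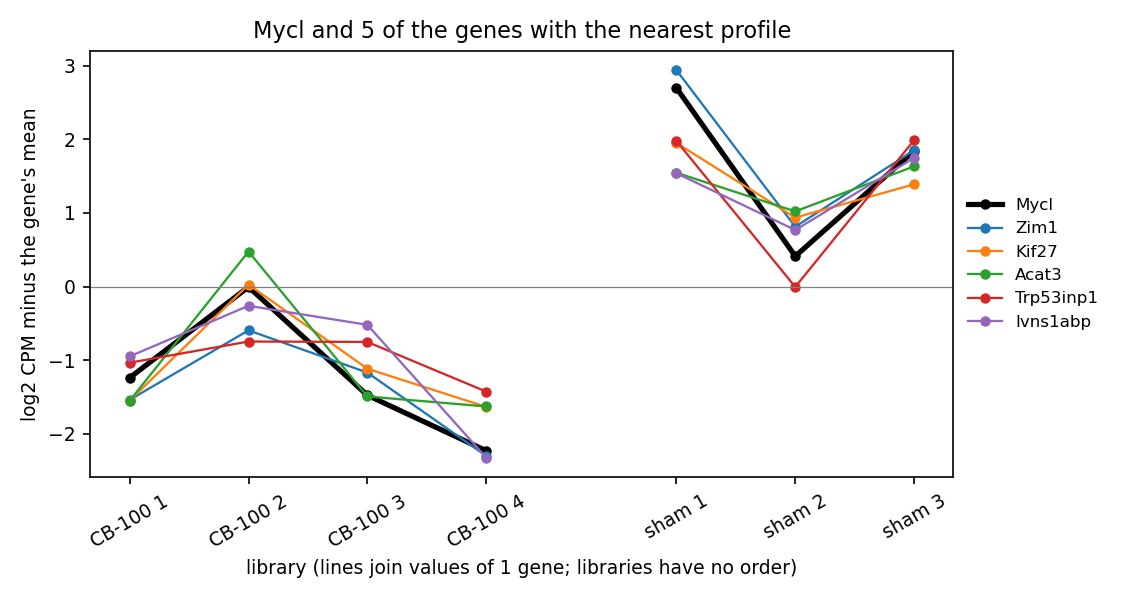
Log2 CPM minus the gene's own mean over 7 libraries for Mycl (thick line) and 5 of the genes nearest to it, CB-100 on the left. In each of these 6 genes the highest CB-100 library is replicate 2 and the lowest sham library is replicate 2.

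Known MYC targets of ribosome biogenesis, the best established arm of the MYC programme, mostly had estimates below 0. Of 30 tested, 2 were called lower and 0 higher, beside 2.28% and 1.42% of all tested genes. Estimates were below 0 in 26 of the 30 and in 7950 of all 16823 genes, and the median was -0.41 on the log2 scale, against 0.03 over all tested genes. Npm1, the nucleolar chaperone nucleophosmin, fell by 0.78 (SE 0.18), with 36.4, 29.7, 31.9 and 44.3 CPM in CB-100 mice and 72.3, 50.7 and 60.3 CPM in sham. Pa2g4, a growth regulator that binds pre-ribosomes, fell by 0.72 (SE 0.13), with 26.9 to 34.4 CPM in CB-100 mice and 47.1 to 52.3 CPM in sham. The counts of Npm1 are non-whole throughout, and a gene model on its own strand overlaps Pa2g4, so both are uncertain. DESeq2 called 7 of the 30 and limma voom 6, beside 11.7% and 7.21% of all the genes these tools gave an adjusted p. In 15 of the 30 genes each CB-100 library lay below each sham library, beside 12.2% of all tested genes, and in 1 above. This list and those below were chosen with earlier results of these data known, so nothing is read from their shares. The summed level of the 30 genes was 592 to 739 CPM in CB-100 mice and 746 to 824 CPM in sham. No gene of this list was called without CB-100 replicates 1 or 2 or without any 1 sham replicate, and 1 was called without CB-100 replicate 3.

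MYC targets of growth and metabolism split more widely. Of 30 tested, 3 were called lower and 0 higher, beside the same 2.28% and 1.42%. Estimates were below 0 in 23 and above 0 in 7, and the median was -0.27, against 0.03 over all tested genes. Each CB-100 library lay below each sham library in 11 of the 30 and above in 2, beside 12.2% and 11.1% of all tested genes. Shmt1 and Shmt2, the cytosolic and mitochondrial serine hydroxymethyltransferases that feed the folate cycle, fell by 1.45 (SE 0.22) and 0.77 (SE 0.16). Shmt1 stood at 27.1, 17.6, 17.5 and 13.4 CPM in CB-100 mice and 45.5, 55.2 and 54.6 CPM in sham. Nme2, a nucleoside diphosphate kinase, fell by 1.00 (SE 0.22). All 3 overlap another gene model, and Nme2 is one of a family with non-whole counts, so they are uncertain. DESeq2 called 8 of the 30 and limma voom 6, beside 11.7% and 7.21% over all genes. Calls by edgeR numbered 0 without CB-100 replicate 2, sham replicate 1 or sham replicate 3, 1 without CB-100 replicate 1 or sham replicate 2, and 4 without CB-100 replicate 4.

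Targets of MLX with ChREBP were called in both directions. Of 15 tested, 2 rose, 1 fell and 12 did not pass, beside 1.42% of all tested genes called higher and 2.28% lower, with a median of 0.35. Scd1, the stearoyl-CoA desaturase, stood at 6980, 2691, 5268 and 3541 CPM in CB-100 mice and 334, 261 and 52.3 CPM in sham. Pnpla3, a lipid droplet hydrolase, rose by 1.90 on the log2 scale (SE 0.40). Txnip, an inhibitor of glucose uptake and a classic target of MondoA and ChREBP, fell by 1.40 (SE 0.26), with 669 to 967 CPM in CB-100 mice and 1859 to 2908 CPM in sham. Each of these 3 has non-whole counts and is uncertain. DESeq2 called 4 of the 15 and limma voom 4, beside 11.7% and 7.21% over all genes. The groups separated with CB-100 higher in 4 of the 15, beside 11.1% of all tested genes. They separated with CB-100 lower in 1, beside 12.2%. No gene of this list was called without CB-100 replicates 1 or 2 or without sham replicates 1 or 3, and 1 was called without CB-100 replicate 3 or sham replicate 2.

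Few partners of the network were called, and their counts stand beside the same shares over all genes. Among 20 tested cofactors and stability factors of MYC, 1 rose and 0 fell, with a median of 0.09. It was Pim1, a kinase that phosphorylates and stabilises MYC, at 129, 126, 76.3 and 156 CPM in CB-100 mice and 66.4, 31.5 and 40.6 CPM in sham. Pim1 rose by 1.40 (SE 0.31, edgeR adjusted p = 0.048). It has non-whole counts and an opposite gene model, and no gene of the list was called without CB-100 replicates 1, 2 or 4 or any 1 sham replicate. In the SIN3 corepressor that MXD proteins and MNT recruit, 1 of 15 fell and 0 rose (median -0.04). Rbbp7, a histone-binding subunit, fell by 0.83 (SE 0.13), is uncertain for Txlng on the opposite strand, and no gene was called without CB-100 replicates 1 or 2 or sham replicates 1 or 3. In the PRC1.6 complex of MGA, 3 of 12 had an unadjusted edgeR p under 0.05, beside 4022 of all 16823 tested genes. For this complex edgeR called 0 of 12, DESeq2 1 and limma voom 0, with a median of -0.13. Its smallest p values were those of Cbx3, a chromodomain protein with non-whole counts that make it uncertain (log2 change -0.43, edgeR adjusted p = 0.082), and Wdr5, a scaffold that also binds MYC (log2 change -0.52, edgeR adjusted p = 0.097). Of 15 germline genes that PRC1.6 silences, 3 passed the filter and edgeR, DESeq2 and limma voom each called 0. By edgeR, 2 of these 3 had an unadjusted p under 0.05, beside the same 4022 of 16823. The summed level of the 15 was 9.54 to 13.0 CPM in CB-100 mice and 19.5 to 21.6 CPM in sham, led by Tdrkh (log2 change -0.92, edgeR adjusted p = 0.11), a piRNA pathway gene overlapped by Oaz3 on the opposite strand and so uncertain.

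**Figure D5:**
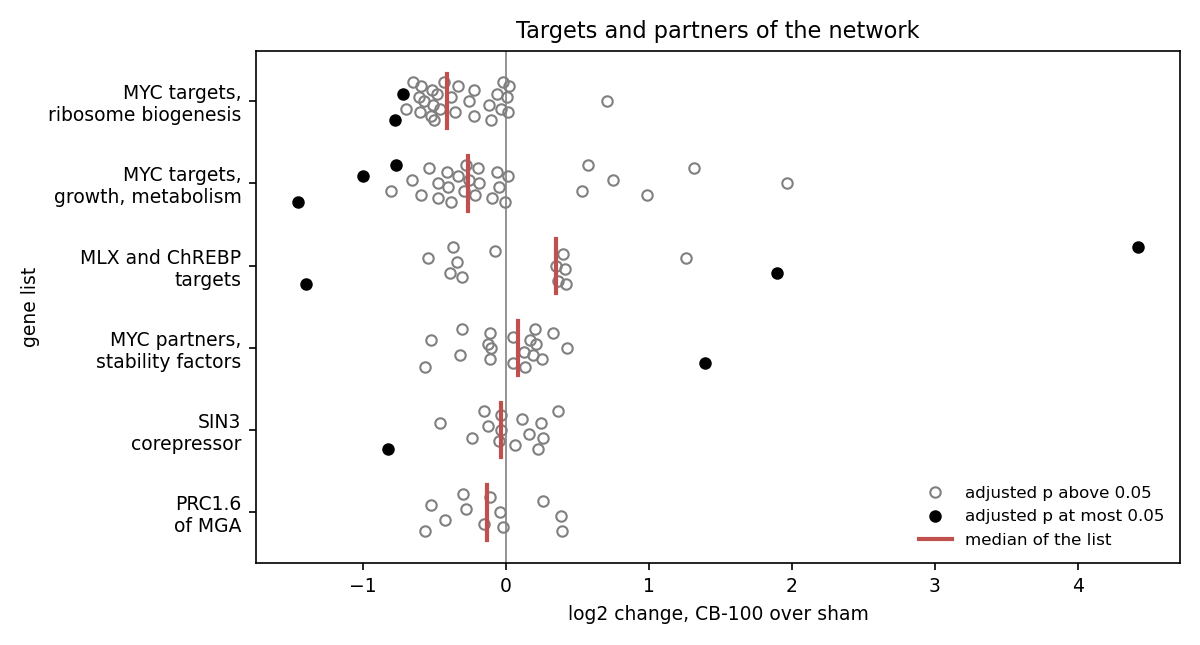
Log2 change of CB-100 over sham for each tested gene (points) of 6 lists of targets and partners of the network, filled where the adjusted p is at most 0.05, with a line at the list's median. The medians of the MYC target lists lie at -0.41 and -0.27, and that of the MLX and ChREBP targets at 0.35.

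Other cell types in the tissue could carry these transcripts, and their markers were read beside Mycl. Dendritic cells, in which mouse Mycl is known to be used, had 5 of 11 markers tested and 0 called, with sums of 55.4 to 79.5 CPM in CB-100 mice and 42.4 to 59.0 CPM in sham. Their leading markers were Zbtb46 (log2 change 0.50), Irf8 (0.19) and Clec9a (-0.17), and the ranges of the sums overlapped. Macrophage markers had 0 of 10 called and sums of 116 to 273 CPM in CB-100 mice and 135 to 208 CPM in sham, led by Lyz2 (0.05), Csf1r (-0.13) and Mrc1 (-0.07). Lymphocyte markers had 0 of 5 called, and their sums of 13.5 to 21.5 CPM in CB-100 lay just above the 7.05 to 13.4 CPM in sham, led by Ighm (1.47), Cd3e (-1.38) and Cd4 (-0.34). Endothelial markers, 0 of 10 called, summed to 940 to 1978 CPM in CB-100 mice and 755 to 1244 CPM in sham, led by Kdr (0.66), Cdh5 (0.07) and Pecam1 (0.19).

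Fibroblast and preadipocyte markers summed to 970 to 2007 CPM in CB-100 mice and 430 to 954 CPM in sham without overlap, with 0 of 10 called, led by Col3a1 (1.87), Col1a1 (1.78) and Col1a2 (1.33). Schwann cell and neuronal markers summed to 89.6 to 130 CPM in CB-100 mice and 54.3 to 62.8 CPM in sham, again without overlap, led by Mbp (0.51) and S100b (2.51, the 1 call of 6, against 0 calls without CB-100 replicates 1, 2 or 3 or sham replicates 1 or 3). S100b is uncertain, with Dip2a on the opposite strand. Of this list 2 of the 11 had no count in any library. Skeletal muscle markers, 0 of 12 called, summed to 1027 to 8964 CPM in CB-100 mice and 2251 to 4411 CPM in sham, with CB-100 replicate 3 highest, led by Ttn (0.30), Myh4 (-0.96) and Acta1 (-0.73). Proliferation markers, 0 of 5 called, summed to 4.53 to 30.9 CPM in CB-100 mice and 4.53 to 8.11 CPM in sham, led by Mki67 (2.01), Top2a (2.05) and Ccna2 (0.72). Brown and general adipocyte markers, 0 of 14 called, summed to 7619 to 13946 CPM in CB-100 mice and 10417 to 13424 CPM in sham, led by Lpl (-0.20), Fabp4 (-0.68) and Lipe (-0.66). Estimates of the 14 went both ways, 8 below 0 and 6 above. Each CB-100 library lay below each sham library in 2 of them and above in 1, beside 12.2% and 11.1% of all tested genes. Counts of calls in these lists are edgeR's, which called 3.70% of all tested genes. At an unadjusted p under 0.05 the counts were 1 for dendritic cells, 0 for macrophages, 3 for lymphocytes, 2 for endothelium and 4 for fibroblasts. They were 4 for Schwann cells and neurons, 0 for muscle, 1 for proliferation and 3 for adipocytes, beside 4022 of all 16823 tested genes. DESeq2 called 2 lymphocyte, 1 endothelial, 4 fibroblast, 2 Schwann cell and neuronal and 2 adipocyte markers and 0 of the dendritic, macrophage, muscle and proliferation markers. For limma voom the calls were 1 lymphocyte, 1 endothelial, 3 fibroblast, 2 Schwann cell and neuronal and 1 adipocyte marker. In the other 4 lists it again called 0. Of all genes given an adjusted p, DESeq2 called 11.7% and limma voom 7.21%. Leaving out CB-100 replicate 3 gave 4 muscle calls, beside 187 calls among all 16679 genes tested. Leaving out sham replicate 2 gave 3 fibroblast calls and 1 lymphocyte call, beside 319 among 17463. The part of these cell types in the values of Mycl and its targets was not tested.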

How the data were processed

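Brown adipose RNA of 7 mice was sequenced on an Illumina instrument and aligned with STAR 2.7.9a to Ensembl release 101, per the labels' protocols. FeatureCounts 2.0.3, Salmon 1.5.2, edgeR and limma stand in the submitters' processing notes without roles. How reads were counted, and whether by strand, is not given in the sources used here. Per gene, the authors deposited expected counts that are not normalized, and genes with non-whole values held 52.4% to 62.9% of each library's counts. After removal of 287 repeated lines, 55487 genes remained.

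Counts were rounded, filtered with filterByExpr, scaled by TMM (factors 0.755 to 1.25) and tested with edgeR 4.0.16 (robust glmQLFit, glmQLFTest) in R 4.3.3 on the group alone, with two-sided p-values adjusted by Benjamini-Hochberg over 16823 genes at a threshold of 0.05. The SE is the size of the log2 change over the square root of F. CPM use TMM-scaled totals, and log2 CPM a prior count of 2. Genes were placed with GENCODE release M21 on GRCm38, which matched 99.5% of identifiers, the assembly of Ensembl 101. The fit was tested on simulated data. All pairs of replicates differed by more than sampling noise (lowest chi-square over its degrees of freedom 28.7). Nothing but the animal codes in the titles says that replicates are separate mice, so p-values reflect the spread between samples, whose number limits the precision.

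The members and the 17 other gene lists were chosen with earlier results of these data known. All 10 members are named, as are the 6 genes nearest to Mycl (protein-coding, mean of at least 1 CPM). Each pathway list gives up to 4 called genes by size of change or 2 by smallest p, and each marker list its 3 highest. Of the genes so named, 2 are not reported here, while counts and sums include them. Genes overlapping another gene model or with non-whole counts are called uncertain where a member or pathway gene is described. Many marker genes carry the same limit.

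Alternatives were DESeq2 size factors, upper quartile scaling, no filter, a filter of 1 CPM in 3 libraries, limma voom (limma 3.58.1), DESeq2 1.42.0, each library left out, sex or a muscle score as covariate, females only, no mitochondrial genes, a threshold of 0.1, CPM with no length correction and a prior count of 0.5.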

Additional observations from a re-analysis of the deposited data

Results flagged for a closer look

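Among the 10 members and 9 sums or ratios of them, 2 values stood apart from the other CB-100 libraries by Dixon's criterion for 4 samples, which chance exceeds in about 1 of 20 groups. Mxi1 was at 15.4 CPM in CB-100 replicate 4, with the next library at 20.0 CPM. Mlx was at 16.5 CPM in CB-100 replicate 1, with the next at 13.4 CPM. Sham, with 3 samples, was not examined in this way.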

How the results depend on the processing

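The direction of Mycl, Myc, Max, Mxi1, Mxd1, Mnt and Mga held under each of the 17 alternatives. With each library left out, the log2 change of Mycl ran from -3.59 to -2.37. Over all alternatives its adjusted p ran from 1.7e-05 (DESeq2) to 0.22 (edgeR, females only). The log2 change of Mycl was -3.04 without a filter, -3.05 with sex and -3.31 with a muscle score as covariate and -2.92 in females. None of these 4 passed the threshold (edgeR adjusted p of 0.060 to 0.22). Members called numbered 0 in each of these 4 settings, 2 (Mycl and Mxi1) with DESeq2 and at a threshold of 0.1, and 0 to 1 with a library left out. Over all genes, calls numbered 1968 with DESeq2, 1213 with limma voom, 1860 at a threshold of 0.1, 238 with sex, 9 with the muscle score, 0 in females by edgeR (2578 at an unadjusted p under 0.05) and 8 to 610 with a library left out. The MYC family share, which contains Mycl, differed by -12.6 percentage points (CB-100 minus sham), and -7.85 in CPM with no length correction. Mlx turned to -0.0071 with limma voom and -0.0099 with the muscle score, and ranged from -0.058 to 0.22 with a library left out, as did Mxd4 from -0.30 to 0.026. The cause of these changes was not tested. Of the 6 genes nearest to Mycl, 5 remained with a prior count of 0.5. No paired analysis was possible because the labels carry no number shared between the groups. The number of mice, and for Mycn the counts, limit what can be seen.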
